A study of Arabidopsis thaliana with 8 samples.

Results

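A set of 105 transcripts was measured in seedlings that lacked CURLY LEAF (CLF) alone, SWINGER (SWN) alone or neither, and was at the bottom of the scale in seedlings that lacked both. The members are probe sets of the Affymetrix ATH1 array, a chip on which each probe set reports 1 signal. They were chosen from 22746 probe sets that are not controls, by a signal of 30 or more on all 6 clf-28, swn-7 and wild-type arrays and of 10 or less on both clf-28 swn-7 arrays. The rule also left out organelle-encoded genes and a few named genes, which removed 0 probe sets. All 8 signals chose the members, so the gap between the double mutant and the other genotypes is given below as a description, with no test. The platform's annotation gives 1 gene for 60 members, several genes for 1, and does not list 44, which could therefore not be compared with the genes to be left out.

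CLF and SWN are related histone methyltransferases of the Polycomb group. They are alternative catalytic subunits of Polycomb repressive complexes, which place a repressive methyl mark on histone H3 and keep developmental genes off outside their proper tissue or stage. The known direct role of the complex is thus repression. In Arabidopsis each of them can cover for part of the other's work, and plants without both are known to form disorganised, callus-like tissue after germination.

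Whole Arabidopsis thaliana seedlings, bulked per sample, were compared between 4 genotypes with 2 arrays each. The clf-28 swn-7 double mutant was harvested after 12 days of growth, and clf-28, swn-7 and wild type after 10 days, all on nutrient agar plates and all labelled growth stage 1.03. All were labelled with 3 days of stratification, a cold treatment of seeds, at 4 C, and with growth at 23 C and 70% humidity. The mutants are T-DNA insertion lines with 1 allele of each gene, and wild type is Columbia (Col-0). Age and genotype cannot be told apart for the double mutant. The labels do not say whether the replicate arrays come from separately grown plants, so a p-value here speaks only to how far these samples scatter, and that scatter may be technical.

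The plot of all members by array shows the gap that the rule fixes. On the double-mutant arrays the members lay at 0.0888 to 9.94 (median 4.12) and at 0.0650 to 9.99 (median 4.72). The medians were 67.7 and 68.7 on the clf-28 arrays, 79.3 and 83.0 on the swn-7 arrays, and 79.8 and 78.6 on the wild-type arrays. Signals of 10 or less were treated as a floor below which values have no order, so that every fold against the double mutant is a lower bound. By that bound the members were at least 3.52- to 55.0-fold lower in the double mutant than in clf-28 (median 6.77). They were at least 3.22- to 78.1-fold lower than in swn-7 (median 7.37), and at least 3.19- to 82.1-fold lower than in wild type (median 8.27). In whole seedlings, fewer cells of a type and less RNA per cell cannot be told apart.

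**Figure D1:**
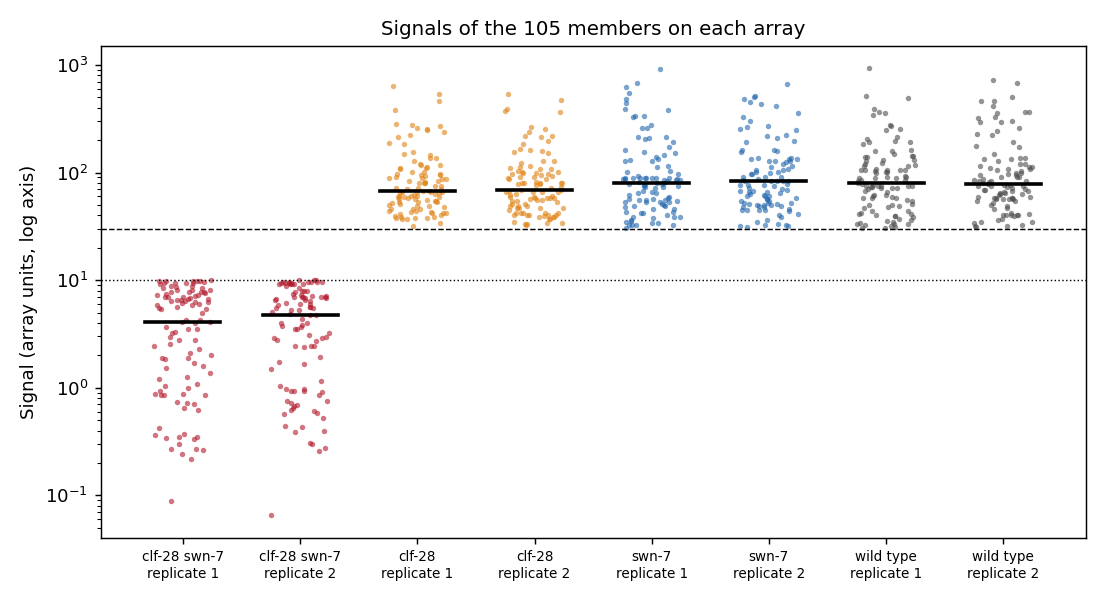
Signal of each of the 105 members (points, log axis, array units) on each of the 8 arrays, with the median of each array as a black bar. The dashed line at 30 and the dotted line at 10 are the limits of the rule, and the medians of 4.12 and 4.72 on the double-mutant arrays lie below those of 67.7 to 83.0 on the other 6 arrays.

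Among the 11168 probe sets at 30 or more on the 6 other arrays, the 105 members made up 0.94%. The word silent in the set's working name goes further than the signals do, because a signal at the floor does not show that a transcript is absent. As read, 36 members were at 5 or less on both double-mutant arrays and 14 at 1 or less. The remainder lay between 5 and 10 on at least 1 of them. Values below 10 have no order, so these counts do not rank the members. A signal of 10 or less on both double-mutant arrays was common, with 6000 probe sets or 26.4% of all, of which 4663 were at 10 or less on all 8 arrays. The same rule turned to another genotype, with 10 or less on both of its arrays and 30 or more on the other 6, found 0 probe sets each for clf-28, swn-7 and wild type. The opposite pattern, 30 or more on both double-mutant arrays and 10 or less on the other 6, was met by 191 probe sets.

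Both limits of the rule cut through a continuous range. The lowest signal on the 6 arrays was 30.2 for 260431_at, 30.4 for AT5G59080 and 30.5 for AT1G52060, the members nearest 30. Just outside were 252970_at and 250167_at at 29.4 and AT1G31550 at 29.3. The higher of the double-mutant signals was 9.99 for AT4G38690, 9.98 for AT2G21100 and 9.94 for AT1G75460, and just outside it was 10.02 for AT3G19390, 10.03 for 249979_s_at and 10.08 for AT3G62930. A further 277 probe sets at 30 or more on the 6 arrays had a higher double-mutant signal above 10 and up to 20.

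Most members were of modest level where they were detected. Their mean signal over the 6 clf-28, swn-7 and wild-type arrays, taken on the log2 scale, ran between 36.0 and 642 with a median of 74.5. The median was 119 over the 11168 probe sets at 30 or more on the 6 arrays, members included, which are called expressed below. A mean of 100 or more was reached by 31 members, against 57.6% of expressed probe sets, and 17 members lay under 50. Signals of different probe sets depend on their probes and are not compared as amounts of RNA.

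The brightest member was AT1G29660, a GDSL-type esterase/lipase, of a family of secreted enzymes that act on lipid and cutin esters. It had 9.78 and 6.99 in the double mutant, against 643 and 470 in clf-28, 681 and 503 in swn-7, and 931 and 725 in wild type. Its bound of at least 82.1-fold lower than wild type was the widest against wild type in the set. AT5G16030 followed, with 7.03 and 9.57 in the double mutant, 539 and 538 in clf-28, 909 and 671 in swn-7, and 340 and 678 in wild type. AT1G75460 had 7.72 and 9.94 in the double mutant, against 460 and 365 in clf-28, 487 and 431 in swn-7, and 268 and 459 in wild type. In each of these 3 the double-mutant arrays stood far below every other array. AT1G29660 had all 4 single-mutant arrays below both wild-type arrays, and in the other two the wild-type arrays overlapped those of at least 1 single mutant.

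Several bright members were well below 10 on both double-mutant arrays. AT2G29290 had 1.21 and 0.647 in the double mutant, against 282 and 196 in clf-28, 621 and 415 in swn-7, and 275 and 458 in wild type. AT5G62280 had 0.347 and 0.392 in the double mutant, against 383 and 372 in clf-28, 549 and 511 in swn-7, and 106 and 303 in wild type. The brightest member that the annotation does not list, 253971_at, had 0.992 and 0.937 in the double mutant, 237 and 218 in clf-28, 447 and 454 in swn-7, and 360 and 502 in wild type. Wild type was wide for AT5G62280, and the double-mutant signals all lay below 10, where values have no order. AT4G38690 had 0.930 and 9.99 in the double mutant and AT1G70820 had 0.739 and 5.53, also below 10. All other arrays of these genes lay at 209 to 325 for AT4G38690 and at 156 to 336 for AT1G70820. Of the 25 members with the highest mean, 15 are not listed in the annotation, and their means ran between 117 and 352.

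For 32 of the 60 members with a gene, a protein family is given here from general knowledge of the locus, and not from the deposited files. The families were assigned with the member list known, so their counts describe the set and say nothing about enrichment. Of these 32, 9 belong to families of lipid or ester metabolism, 12 to families of the cell wall, 5 are regulators, 3 belong to defence-related families and 3 are proteins of the chloroplast or of membranes. The other 28 named loci reached the floor in the double mutant by at least 3.69- to 48.0-fold against wild type, with a median bound of 8.41. The plot by protein family gives the 8 signals of each of the 32.

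**Figure D2:**
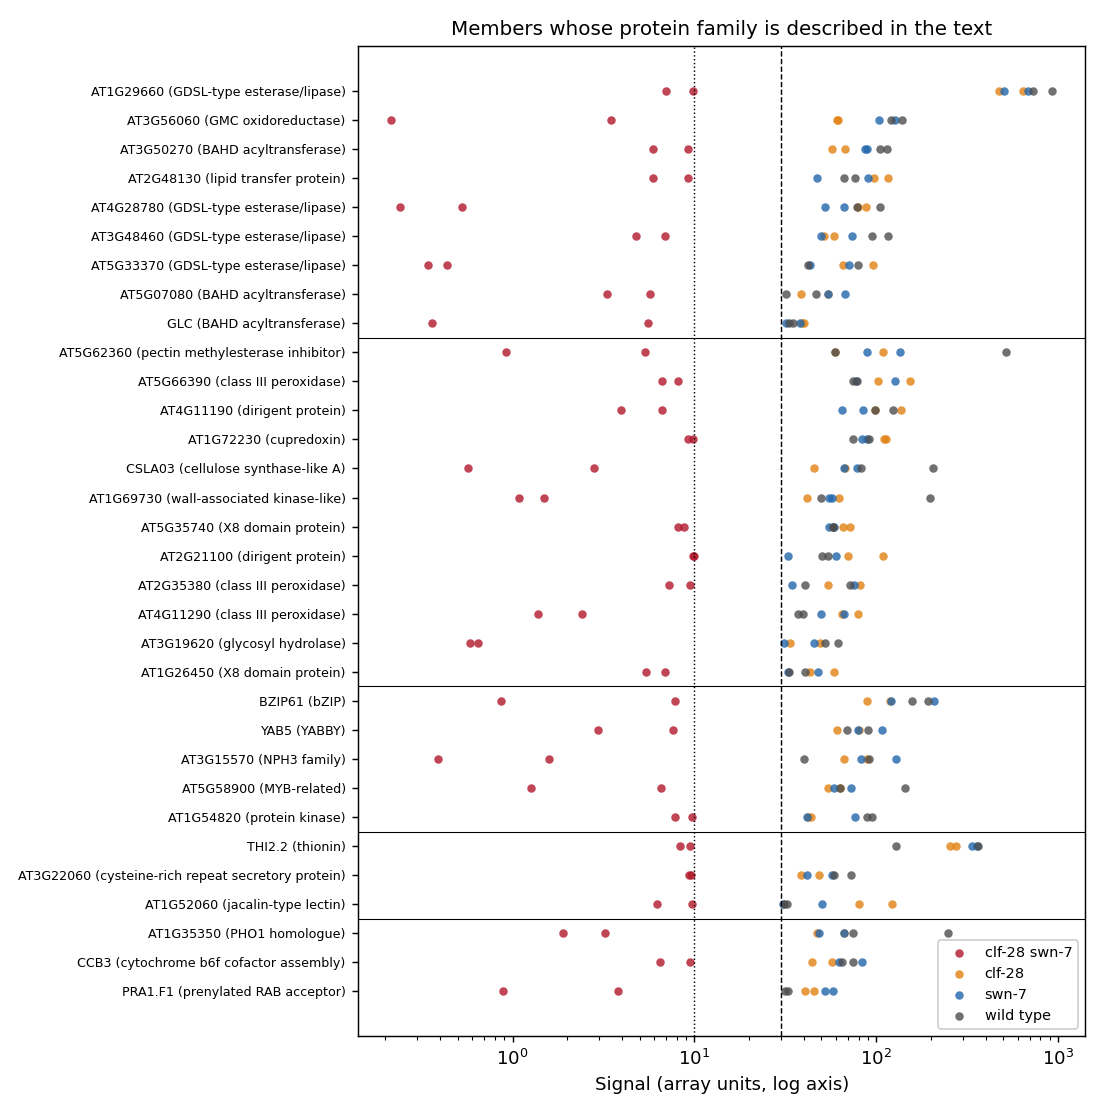
Signals (log axis, array units) of the 32 members with a stated protein family, 2 points per genotype, grouped by horizontal lines into lipid and ester metabolism, cell wall, regulators, defence, and chloroplast or membrane. The double-mutant points lie left of the dotted line at 10 and the other points right of the dashed line at 30, as the rule requires, and 1 wild-type array stands apart to the right for AT5G62360, AT1G69730, CSLA03 and AT1G35350.

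The lipid and ester group holds 4 GDSL-type esterase/lipases, a lipid transfer protein, a GMC oxidoreductase and 3 BAHD acyltransferases. Families of these kinds supply the cuticle, the lipid layer that seals the surface of leaves and stems, along with many other ester products. AT4G28780, a GDSL-type esterase/lipase, had 0.241 and 0.526 in the double mutant, against 87.9 and 79.5 in clf-28, 66.7 and 52.6 in swn-7, and 78.5 and 105 in wild type. AT5G33370, of the same family, had 0.341 and 0.437 in the double mutant, against 95.7 and 65.7 in clf-28, 43.0 and 71.2 in swn-7, and 42.0 and 79.2 in wild type. AT3G48460, the other GDSL-type member, had 6.88 and 4.77 in the double mutant, 58.7 and 51.4 in clf-28, 73.8 and 49.4 in swn-7, and 116 and 95.3 in wild type. For AT4G28780 both swn-7 arrays lay below those of clf-28 and wild type, AT5G33370 overlapped among the 3 genotypes, and for AT3G48460 both wild-type arrays stood above both arrays of each single mutant.

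AT3G56060, a GMC oxidoreductase, had 0.215 and 3.48 in the double mutant, 61.7 and 60.7 in clf-28, 104 and 127 in swn-7, and 139 and 121 in wild type. AT2G48130, of the non-specific lipid transfer proteins that carry lipids to the cell surface, had 9.24 and 5.89 in the double mutant, 97.4 and 115 in clf-28, 47.4 and 89.9 in swn-7, and 66.3 and 76.9 in wild type. The clf-28 arrays were the lowest of the 6 for the first gene and the highest for the second. The BAHD acyltransferases, which transfer acyl groups onto alcohols and amines, were AT3G50270, AT5G07080 and GLC (GLAUCE). GLC had the lowest mean of all 105 members, with 0.362 and 5.52 in the double mutant, 39.8 and 38.9 in clf-28, 38.0 and 31.8 in swn-7, and 33.0 and 35.0 in wild type. A second probe set of GLC was dim throughout, with 0.565 and 0.479 in the double mutant, 11.1 and 7.62 in clf-28, 9.16 and 11.5 in swn-7, and 14.6 and 12.4 in wild type. It is the only other single-gene probe set of any member gene. Its double-mutant signals were below 10, where values have no order, but so were the clf-28 signal of 7.62 and the swn-7 signal of 9.16.

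The 12 cell wall members include 3 class III peroxidases, secreted enzymes that cross-link wall polymers and lignin. AT5G66390 had 8.11 and 6.62 in the double mutant, against 102 and 153 in clf-28, 77.7 and 128 in swn-7, and 74.7 and 78.6 in wild type. AT4G11290 had 1.37 and 2.42 in the double mutant, against 64.6 and 79.4 in clf-28, 49.5 and 66.6 in swn-7, and 39.4 and 36.9 in wild type. AT2G35380, the third peroxidase, lay at 9.44 and 7.24 in the double mutant and at 34.5 to 81.0 elsewhere. In AT5G66390 and AT4G11290 both clf-28 arrays lay above both wild-type arrays. The dirigent proteins AT4G11190 and AT2G21100, of a family that guides the coupling of lignan precursors, had 6.62 and 3.96, and 9.79 and 9.98, in the double mutant. On the other 6 arrays AT4G11190 had 64.6 to 137 and AT2G21100 had 32.6 to 109.

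CSLA03, of the cellulose synthase-like A family that makes mannan backbones, had 2.80 and 0.568 in the double mutant, 45.4 and 67.0 in clf-28, 66.6 and 78.2 in swn-7, and 204 and 82.1 in wild type. AT5G62360, of the pectin methylesterase inhibitors, had 5.37 and 0.925 in the double mutant, 59.5 and 108 in clf-28, 89.0 and 134 in swn-7, and 517 and 59.7 in wild type. AT1G69730, a wall-associated kinase-like protein, had 1.08 and 1.48 in the double mutant, 62.7 and 41.9 in clf-28, 56.9 and 54.7 in swn-7, and 198 and 49.6 in wild type. In all 3 the wild-type array of replicate 1 was the highest of the 8 by a wide margin, and in AT5G62360 the other wild-type array was among the lowest of the 6. The X8 domain proteins AT5G35740 and AT1G26450, the cupredoxin AT1G72230 and the glycosyl hydrolase AT3G19620 complete the group. AT5G35740 was among the steadiest members, with 8.08 and 8.82 in the double mutant, 65.8 and 71.9 in clf-28, 58.7 and 54.7 in swn-7, and 58.2 and 57.7 in wild type.

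Among the regulators, BZIP61, a basic leucine zipper transcription factor, had 7.79 and 0.862 in the double mutant, 118 and 88.5 in clf-28, 207 and 121 in swn-7, and 158 and 193 in wild type. YAB5, of the YABBY factors that mark the lower side of leaves and other lateral organs, had 7.66 and 2.96 in the double mutant, 60.7 and 80.1 in clf-28, 79.3 and 107 in swn-7, and 90.1 and 68.9 in wild type. BZIP61 was lower on both clf-28 arrays than on both wild-type arrays, and YAB5 overlapped among all 3 genotypes. AT5G58900, a MYB-related protein, AT3G15570, of the NPH3 family of light-signalling adaptors, and the protein kinase AT1G54820 were at most 9.67 in the double mutant. AT5G58900 had 54.6 to 143, AT3G15570 39.9 to 129 and AT1G54820 41.5 to 95.0 on the other 6 arrays.

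THI2.2 encodes a thionin, one of the small cysteine-rich peptides that damage microbial membranes. It had 8.38 and 9.45 in the double mutant, against 276 and 254 in clf-28, 338 and 356 in swn-7, and 128 and 364 in wild type. The jacalin-type lectin AT1G52060, of a family of carbohydrate-binding proteins, had 6.24 and 9.67 in the double mutant, 80.0 and 123 in clf-28, 30.5 and 50.5 in swn-7, and 32.5 and 31.3 in wild type. Only clf-28 had both arrays above 60 for this lectin. The secreted cysteine-rich repeat protein AT3G22060 had 9.36 and 9.56 in the double mutant and 38.8 to 72.9 elsewhere.

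CCB3, which helps to attach a haem cofactor to the cytochrome b6f complex of the photosynthetic electron chain, had 9.51 and 6.45 in the double mutant, 57.3 and 44.4 in clf-28, 83.5 and 62.1 in swn-7, and 75.0 and 64.6 in wild type. PRA1.F1, a prenylated RAB acceptor of membrane traffic, had 0.881 and 3.79 in the double mutant, 45.5 and 40.6 in clf-28, 57.8 and 52.3 in swn-7, and 31.3 and 32.6 in wild type. The clf-28 arrays lay below wild type for CCB3 and above it for PRA1.F1. AT1G35350, a homologue of the phosphate exporter PHO1, had 1.89 and 3.21 in the double mutant, 66.2 and 47.2 in clf-28, 48.4 and 66.3 in swn-7, and 249 and 74.4 in wild type.

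Relatives of the members that carry the same name stem were read on the same arrays, and 45 were measured. A relative that met the rule would itself be a member, so none of the 45 could meet it. The stems were chosen after the members were seen, and the double mutant's difference is described without a test. THI2.1 ran opposite to THI2.2, with 40.4 and 62.3 in the double mutant, 5.96 and 6.36 in clf-28, 6.23 and 5.09 in swn-7, and 11.9 and 6.76 in wild type. YAB3, the relative of YAB5, stayed well above 10 in the double mutant at 45.9 and 66.0, against 85.8 and 85.8 in clf-28, 106 and 110 in swn-7, and 67.5 and 91.2 in wild type. YLMG1-2, of the same protein family as CCB3, had 121 and 141 in the double mutant, 326 and 272 in clf-28, 295 and 311 in swn-7, and 287 and 288 in wild type. Both of these were lower on the double-mutant arrays than on any other array, yet neither came near the floor.

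Of the 8 cellulose synthase-like genes with a symbol, 1 is a member (CSLA03), 1 had both double-mutant arrays below the other 6 and 6 overlapped. For these counts, signals under 10 were set to 10. Of all 18119 probe sets above 10 on at least 1 array, 31.1% had both double-mutant arrays above the other 6 and 23.7% had both below, so such a split is common and is given here as a description. The cellulose synthase-like gene below is CSLC04, of the branch that makes xyloglucan backbones, with 49.7 and 76.5 in the double mutant, 259 and 217 in clf-28, 284 and 294 in swn-7, and 524 and 219 in wild type. Of the 11 PRA1 genes, 1 is a member, 3 had both double-mutant arrays below the other 6, 2 had both above, 4 overlapped and 1 was at or below the floor on all 8 arrays. Of the 3 below, PRA1.B6 came closest to the members, with 18.6 and 9.18 in the double mutant, 73.4 and 88.0 in clf-28, 63.0 and 99.4 in swn-7, and 53.0 and 63.7 in wild type. PRA1.H was on the other side, with 82.4 and 78.7 in the double mutant and 26.0 to 49.7 elsewhere. Among the 20 bZIP genes 1 is a member, 6 had both double-mutant arrays above the other 6, 1 had both below, 7 overlapped and 5 were at or below the floor on all 8 arrays. BZIP60 and BZIP28, which act in the stress response of the endoplasmic reticulum, were on the higher side at 247 and 291, and 241 and 229, in the double mutant. On the other arrays BZIP60 had 112 to 166 and BZIP28 had 108 to 150. Of the 7 peroxidases named as such in RefSeq, 1 is a member, 1 had both double-mutant arrays above the other 6, 1 had both below, 3 overlapped and 1 was at or below the floor throughout. The one above was PRX52, at 78.4 and 182 in the double mutant against 20.9 and 18.3 in clf-28, 11.4 and 12.7 in swn-7, and 11.6 and 12.2 in wild type. The one below was Prx37, at 30.8 and 17.5 in the double mutant and 50.2 to 98.6 elsewhere. The member peroxidases AT4G11290 and AT2G35380 are not among these 7.

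**Figure D3:**
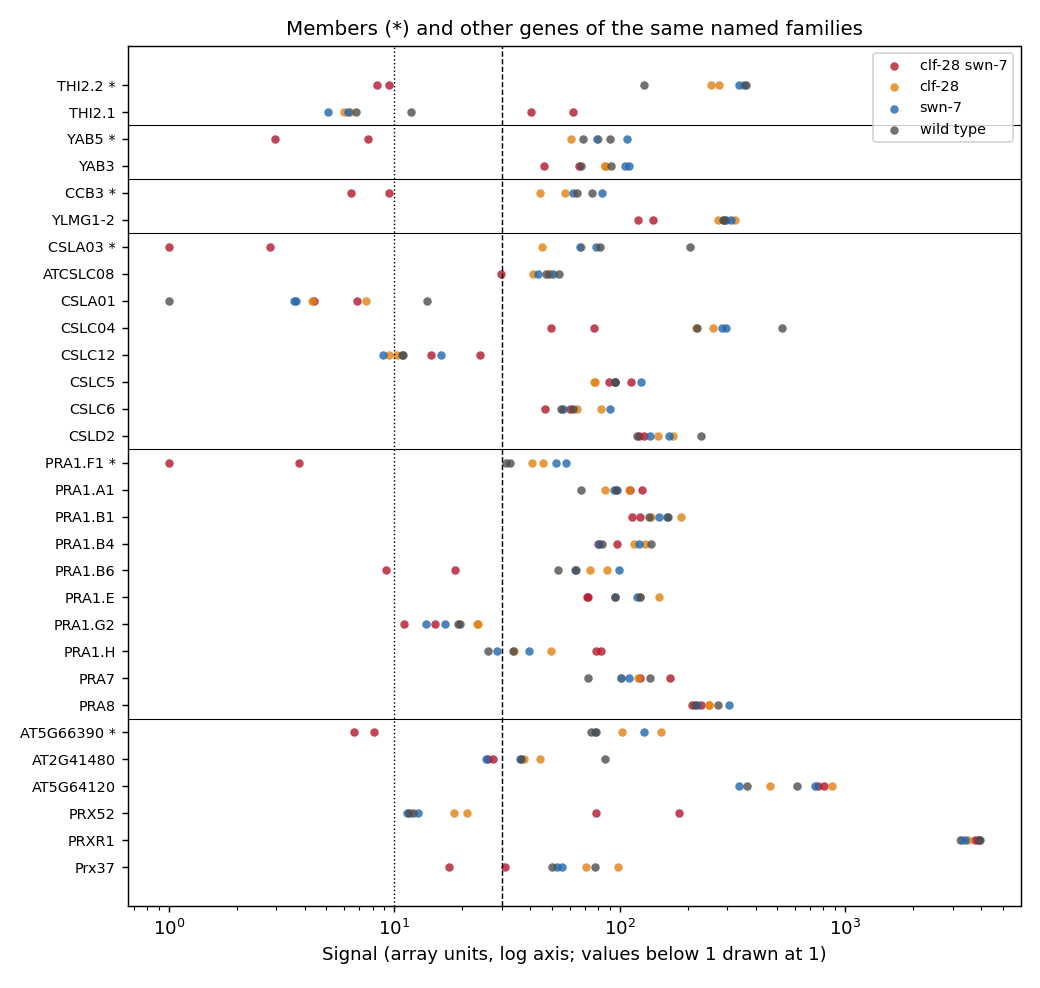
Signals (log axis, array units, values below 1 drawn at 1) of 6 members, marked with an asterisk, and of the other genes of the same name stem or family that were above 10 on at least 1 array, 2 points per genotype. THI2.1 and PRX52 have their double-mutant points to the right of the other 6, and YAB3, YLMG1-2, CSLC04 and PRA1.B6 have them to the left. Only the members lie wholly left of 10 in the double mutant and right of 30 elsewhere, which follows from the rule.

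Setting clf-28 against wild type asks whether the members, held by the rule at 30 or more on these arrays, differ when CLF alone is lost. A transcript lost in a single mutant could not be a member, so the rule limits the falls that all 3 contrasts can show. Expressed probe sets were held at 30 as well but were brighter, with a median mean signal of 119 against 74.5, which leaves them more room to fall. None of the 105 passed the adjusted threshold of 0.05 (limma, smallest adjusted p = 0.0891, for 248888_at), against 21 of all 17332 probe sets tested, or 0.121%. Their median log2 difference (clf-28 minus wild type) was -0.20, against 0.03 for expressed probe sets. In 41 members, or 39.0%, both clf-28 arrays lay below both wild-type arrays, beside 21.5% of expressed probe sets. In 24 members, or 22.9%, both lay above, beside 26%. Within 1 log2 unit were 89 of the 105, or 84.8%, beside 97.5% of expressed probe sets. The rule puts the members at the floor on both double-mutant arrays, which add no spread to their fit, so a fit to the 6 other arrays was added after the data were seen. It called 0 members as well. An unadjusted limma p under 0.05 was reached by 37 members, or 35.2%, in both fits, beside 12.5% of all probe sets tested in the fit to 8 arrays and 12.6% in the fit to 6. Without wild type replicate 2, the members' median log2 difference was -0.12, against 0.05 for expressed probe sets. Some members passed in that fit, in both directions. They are not counted here, because the 1 wild-type array left shows no spread of its own.

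The members lowest in clf-28 relative to wild type were AT3G06070, 248888_at and AT1G64360, and none of them passed the test. AT3G06070 had 6.42 and 0.430 in the double mutant, 40.9 and 41.7 in clf-28, 63.9 and 44.6 in swn-7, and 498 and 67.0 in wild type. Its log2 difference of -2.14 (SE 0.78, limma adjusted p = 0.35) rests on 1 wild-type array, and it was -0.70 without that array, wild type replicate 1, and -3.59 without replicate 2 (limma adjusted p = 0.00515). The difference of 248888_at was -1.45 (SE 0.22, limma adjusted p = 0.0891), with 43.5 and 38.9 in clf-28 and 130 and 96.6 in wild type. Without wild type replicate 2 it was -1.66 and passed (limma adjusted p = 0.0175). AT1G64360 differed by -1.37 (SE 0.33, limma adjusted p = 0.235), with 40.6 and 32.9 in clf-28 against 120 and 74.6 in wild type. At the other end, the lectin AT1G52060 differed by 1.64 (SE 0.30, limma adjusted p = 0.15) and 254550_at by 1.49 (SE 0.46, limma adjusted p = 0.297). AT5G62280 differed by 1.08 (SE 0.42, limma adjusted p = 0.362). It differed by 0.32 without wild type replicate 1, and by 1.84 without replicate 2, where it passed (limma adjusted p = 0.0061).

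By protein family, the 12 cell wall members had a median log2 difference of 0.27 between clf-28 and wild type, with 6 wholly above wild type and 2 wholly below. The 9 lipid and ester members had a median of -0.12, with 2 above and 4 below. These counts stand beside the 26% of expressed probe sets wholly above and the 21.5% wholly below. AT3G56060 was the lowest of these relative to its error, at -1.08 (SE 0.19, limma adjusted p = 0.127), and it passed at -1.18 only without wild type replicate 2 (limma adjusted p = 0.0465). The 5 regulators had a median of -0.69, with 0 above and 2 below, BZIP61 at -0.77 (SE 0.29, limma adjusted p = 0.353) and AT1G54820 at -1.10 (SE 0.29, limma adjusted p = 0.256). Between swn-7 and wild type the medians were -0.15 for the cell wall members (1 above, 3 below), -0.17 for the lipid and ester members (1 above, 4 below) and -0.14 for the regulators (0 above, 1 below). In swn-7, 23.8% of expressed probe sets lay wholly above wild type and 18.9% wholly below. No member of these families passed the test in the fit to all 8 arrays, so the medians are descriptions of small groups.

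Setting swn-7 against wild type asks the same of SWN. None of the 105 members passed (limma, smallest adjusted p = 0.16), and neither did any of the 17332 probe sets tested, a share of 0%. The members' median log2 difference (swn-7 minus wild type) was -0.03, against 0.03 for expressed probe sets, and it lay between -0.10 and 0.04 when 1 array was left out, so that its sign was not stable. Both swn-7 arrays lay below both wild-type arrays in 26 members, or 24.8%, beside 18.9% of expressed probe sets, and above in 24, or 22.9%, beside 23.8%. Within 1 log2 unit were 92 members, or 87.6%, beside 97% of expressed probe sets. An unadjusted limma p under 0.05 was reached by 31 members, or 29.5%, beside 12.2% of all tested, and in the fit to 6 arrays by 29, or 27.6%, beside 12.4%. Some members passed, in both directions, in the fit without wild type replicate 2. They are not counted here, because the 1 wild-type array left shows no spread of its own.

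The widest differences in swn-7 were in 261226_at and 262113_at, neither of which is listed in the annotation. 261226_at had 0.420 and 0.300 in the double mutant, 108 and 95.2 in clf-28, 175 and 217 in swn-7, and 33.9 and 70.9 in wild type, a swn-7 difference of 1.99 (SE 0.34, limma adjusted p = 0.16). 262113_at had 1.52 and 7.03 in the double mutant, 109 and 58.3 in clf-28, 53.4 and 44.6 in swn-7, and 163 and 176 in wild type, a difference of -1.80 (SE 0.30, limma adjusted p = 0.16). Both swn-7 arrays lay outside the wild-type arrays in each case, above for the first and below for the second. Without wild type replicate 2 the difference of 261226_at was 2.52 and passed (limma adjusted p = 0.00609). AT2G34810 differed by -1.68 (SE 0.31, limma adjusted p = 0.162), with 34.1 and 33.1 in swn-7 against 150 and 76.9 in wild type. Its difference lay between -2.16 and -1.20 when 1 array was left out. AT5G62280 differed by 1.57 (SE 0.42, limma adjusted p = 0.256). It differed by 0.80 without wild type replicate 1, and by 2.33 without replicate 2, where it passed (limma adjusted p = 0.00309). AT3G06070, at -1.77 (SE 0.78, limma adjusted p = 0.418), again rested on wild type replicate 1, and was -0.33 without it and -3.22 without replicate 2 (limma adjusted p = 0.00519). 254550_at differed by 1.45 (SE 0.46, limma adjusted p = 0.317), and by 0.78 without swn-7 replicate 2. It had 192 and 483 in swn-7 and 83.0 and 150 in wild type, so that its swn-7 arrays were themselves far apart.

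Set directly against each other, the single mutants differed by a median of -0.23 log2 units over the members (clf-28 minus swn-7), against 0.004 for expressed probe sets. None of the 105 passed (limma, smallest adjusted p = 0.0873, for 255510_at), against 18 of 17332, or 0.104%. At an unadjusted limma p under 0.05 there were 26, or 24.8%, beside 8.72% of all tested, and in the fit to 6 arrays 24, or 22.9%, beside 8.92%. Within 1 log2 unit were 97 members, or 92.4%, beside 99% of expressed probe sets. In 43 members, or 41.0%, both clf-28 arrays lay below both swn-7 arrays, beside 22.3% of expressed probe sets. In 15, or 14.3%, both lay above, beside 22.4%. The clf-28 mean was the lowest of the 3 genotypes in 49 members, the swn-7 mean in 20 and the wild-type mean in 36. These counts were not made for expressed probe sets, so they only describe the members. The 3 contrasts share arrays and are not independent of each other.

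The member with the widest gap between the single mutants was AT5G57760, with 4.90 and 5.32 in the double mutant, 58.1 and 37.4 in clf-28, 132 and 193 in swn-7, and 54.2 and 90.1 in wild type. Its log2 difference was -1.78 (SE 0.34, limma adjusted p = 0.18). 255510_at ran the other way, with 1.85 and 0.686 in the double mutant, 79.3 and 76.9 in clf-28, 32.8 and 31.7 in swn-7, and 72.3 and 63.4 in wild type. Its difference was 1.28 (SE 0.19, limma adjusted p = 0.0873), and its arrays were close together within each genotype. The lectin AT1G52060 differed by 1.34 (SE 0.30, limma adjusted p = 0.271) and the dirigent protein AT2G21100 by 0.98 (SE 0.34, limma adjusted p = 0.451), both with clf-28 wholly above swn-7. Without swn-7 replicate 1 the difference of AT2G21100 was 0.53. 262259_s_at and 248793_at were at -1.18 (SE 0.25, limma adjusted p = 0.252) and -1.15 (SE 0.40, limma adjusted p = 0.451).

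**Figure D4:**
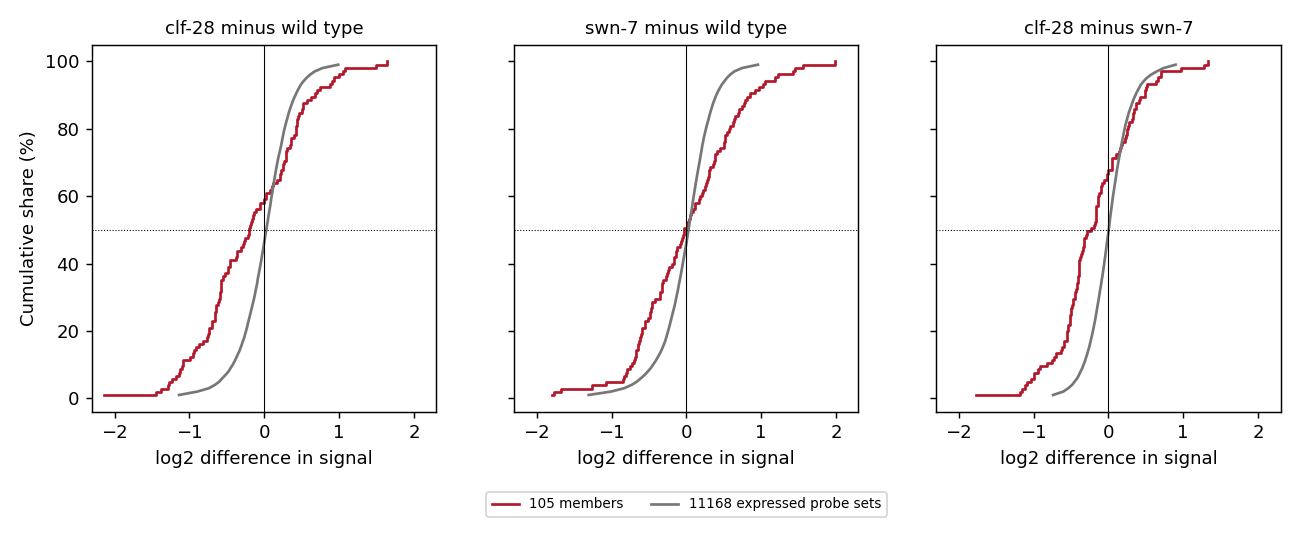
Cumulative share (percent) of log2 differences in signal for the 105 members (red) and for the 11168 probe sets at 30 or more on the 6 arrays, members included (grey, drawn at its percentiles), in the 3 contrasts among clf-28, swn-7 and wild type. The members cross the 50% line at -0.20, -0.03 and -0.23, and in both contrasts with wild type their curves are wider than the grey ones at both ends.

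Read together, 22 members, or 21.0%, lay wholly below wild type in both single mutants, beside 9.66% of expressed probe sets, and 11, or 10.5%, wholly above in both, beside 12.8%. A further 3 (2.86%, beside 1.75%) lay below in clf-28 and above in swn-7, and 1, 255510_at (0.952%, beside 1.48%), lay above in clf-28 and below in swn-7. The 22 include AT1G29660, AT3G48460, AT3G50270, CSLA03, AT1G35350 and AT1G54820, and the 11 include PRA1.F1, AT4G11290, AT5G62280 and 261226_at. The single mutants are compared with the same wild-type arrays, so a high or low wild-type array moves both comparisons at once.

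The 6 signals of a member were often spread out. The ratio of the highest to the lowest had a median of 2.29 in members and of 1.498 in expressed probe sets, which include the members and are brighter, as given above, and the part of that gap in level was not tested. In members it ran between 1.25 and 12.2, with the highest ratio in AT3G06070. It was under 2 in 37 members and 3 or more in 26. The wild-type arrays were at least 2-fold apart in 19 members, or 18.1%, against 4.21% of expressed probe sets. In 8 of the 19 replicate 1 was the higher and in 11 replicate 2. The same count was 4 in swn-7 (3.81% of members, against 1.31% of expressed probe sets) and 1 in clf-28 (0.952%, against 0.322%). Over all tested probe sets the wild-type arrays correlated at 0.958, against 0.974 to 0.986 within the other genotypes, with 1059 probe sets at least 2-fold apart. The part of this difference in the results above was not tested beyond leaving out each array in turn.

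The member genes lay on all 5 nuclear chromosomes, and none of their neighbours measured under a listed name met the rule. The 44 members that the annotation does not list could not be placed, so a neighbour among them would be missed. Of the 60 members with a gene, 20 lie on chromosome 1, 8 on chromosome 2, 8 on chromosome 3, 6 on chromosome 4 and 18 on chromosome 5. Under a listed name, the array measured 53 genes, with 54 probe sets, directly next to a member gene in the RefSeq annotation of TAIR10.1. Of these, 0 are members. Of these neighbours 22 genes, each with 1 probe set, were at 30 or more on the 6 arrays, and 6 of the 22, or 27.3%, were at least 2-fold lower in the double mutant, against 17.0% of 5804 expressed probe sets with 1 listed gene. Their median log2 difference (double mutant minus the mean of the 6 arrays) was -0.35, ranging between -3.14 and 0.99, against 0.08 for the named probe sets. The lowest was AT1G29670, next to AT1G29660, with 65.9 and 162 in the double mutant, 752 and 662 in clf-28, 847 and 979 in swn-7, and 1360 and 1029 in wild type. It was the neighbour of the brightest member and stayed above 60 on both double-mutant arrays. The member genes had a median length of 1914 bp, against 2361 bp over the 5755 expressed probe sets of named nuclear genes, and 63.3% had a single RefSeq transcript, against 51.9%.

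Some markers of tissues and stages stood apart in the double mutant on the same arrays as the members, and others overlapped. Of 239 list entries, 35 were measured under a listed name, 0 are members, and 0 passed any of the 3 tested contrasts. The glucosinolate and clock lists are not given here. The 4 nuclear photosystem subunits summed to 766 to 1364 in the double mutant and 9796 to 13802 elsewhere. The 3 Calvin cycle genes summed to 504 to 837 against 6692 to 9652. The measured photorespiration and chlorophyll synthesis genes were each lower in the double mutant. The 1 cuticle gene, WSD1, was under 10 in the double mutant and also in swn-7. The 4 measured seed and embryo markers summed to 15076 to 15813 in the double mutant, against 28.5 to 31.5 in clf-28, 11.9 to 42.3 in swn-7 and 39.9 to 97.8 in wild type. The 2 antenna genes of photosynthesis summed to 441 to 597 in the double mutant, 4010 to 4183 in clf-28, 3962 to 5561 in swn-7 and 4185 to 5384 in wild type. The low sum came from LHCB4.1, at 258 and 336 in the double mutant and 3907 to 5504 elsewhere, whereas LHCB4.3 was on the other side, at 182 and 261 in the double mutant and 36.3 to 103 elsewhere. The 2 root hair expansins, EXPA7 and EXPA18, summed to 9.00 to 14.3 in the double mutant, 67.0 to 111 in clf-28, 35.2 to 58.7 in swn-7 and 47.2 to 52.2 in wild type. The 3 reference transcripts summed to 477 to 482 in the double mutant, 466 to 521 in clf-28, 489 to 497 in swn-7 and 452 to 469 in wild type. Within that sum PEX4 was lower in the double mutant, at 192 and 223 against 233 to 289 elsewhere, and SAND higher, at 174 and 153 against 118 to 150. SPCH, MUTE and FAMA were the 3 genes measured from the guard cell and myrosin cell list. They summed to 52.1 to 65.5 in the double mutant, 49.1 to 65.3 in clf-28, 57.1 to 70.9 in swn-7 and 63.6 to 76.0 in wild type. Within that sum MUTE was higher in the double mutant (35.5 and 34.0, against 3.00 to 6.37 elsewhere). FAMA was lower (18.3 and 13.4, against 27.4 to 51.9), and so was SPCH (11.6 and 4.65, against 15.4 to 22.4). The 2 leaf and trichome regulators, TRY and YAB3, summed to 77.1 to 125 in the double mutant, 90.8 to 96.7 in clf-28, 114 to 117 in swn-7 and 76.8 to 96.1 in wild type, with TRY higher in the double mutant (31.1 and 59.0, against 4.87 to 10.9) and YAB3 lower, as given above. Outside these sums, the expansin and auxin lists had 2 measured genes each, and 1 of each came near the rule. The other of each did not. EXPA4 had 558 and 429 in the double mutant and 401 to 518 elsewhere, and GH3.3 had 85.7 and 145 against 92.4 to 632. The expansin EXPA8 had 18.7 and 9.71 in the double mutant, 260 and 228 in clf-28, 508 and 300 in swn-7, and 69.2 and 229 in wild type, and the auxin response gene IAA29 had 11.1 and 0.801 in the double mutant, 119 and 146 in clf-28, 278 and 223 in swn-7, and 30.3 and 205 in wild type. The seed, antenna, photosystem, Calvin cycle and root hair sums separated the same arrays as the members, and their part in the members' low signals was not tested. The annotation names no probe set for CLF or SWN, and the levels of the mutated genes were not used here to check the genotypes.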

How the data were processed

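The deposited values are array intensities, 1 linear signal per probe set and array, made by the authors with MAS5 and GCOS per the submitters' processing notes, with versions not given in the sources used here. On every array the 2% trimmed mean was 100.0, so no scaling was added. Signals under 10.0 (10% of the trimmed mean) were set to that floor before log2. Probe sets above it on at least 2 of the 8 arrays (17332 of 22746, without 64 controls) were fitted with limma 3.58.1 in R 4.3.3 (lmFit, eBayes with intensity trend, 1 mean per genotype). Two-sided p-values were adjusted after Benjamini and Hochberg over all of them, with a threshold of 0.05. The fit was also run on simulated data, and the outcome is not given here. SE is limma's standard error of a log2 difference. The number of arrays limits the precision.

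Contrasts with the double mutant chose the members and were not tested. The members, the lists and the families were chosen with earlier results of these data known. Named genes are members among the 25 brightest, those with a symbol, the extremes of each contrast and the members nearest the limits. All 25 were to be named, but most of the 15 that the annotation does not list are not, so the ones shown are a choice. Members with a described protein family and the extremes of the direct contrast of the single mutants were added after their values were seen. Gene names come from the platform annotation (13513 probe sets with 1 symbol, 503 with several, 8794 not listed), updated through RefSeq (9492 of 9532 tested probe sets matched). No sequence is printed. Replicate numbers were not used to pair the samples, and the replicate block was kept as an alternative. The correlations between genotypes of the difference between replicates were -0.08 to 0.22, which does not show that a shared replicate effect is absent. The other alternatives were other floors, a constant of 16, quantile or median scaling, other filters and eBayes variants, fits to fewer arrays, other limits of the rule and leaving out each array.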

Additional observations from a re-analysis of the deposited data

How the results depend on the processing

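The size of the set followed its limits: it was 182 with 20 or more on the 6 arrays, 47 with 50 or more, 36 with 5 or less in the double mutant and 380 with 20 or less. Leaving out 1 array gave 108 to 174, with 173 and 174 when either double-mutant array was dropped. With 2 arrays per genotype, 1 array could decide a call. Leaving out 1 array gave 2 to 674 calls over all probe sets for clf-28 minus wild type, 0 to 879 for swn-7 minus wild type and 3 to 27 for clf-28 minus swn-7. Members called were 0 to 14, 0 to 17 and 0. The 14 (3 higher, 11 lower) and the 17 (10 higher, 7 lower) came only without wild type replicate 2, where the lone wild-type array is assumed to vary like the other genotypes. Leaving out 1 array also gave 24 to 42 members wholly above in clf-28 minus wild type, 26 to 42 below and 24 to 43 above in swn-7 minus wild type, and 15 to 29 above in clf-28 minus swn-7. With 1 array fewer a split is easier to reach for any probe set: without wild type replicate 2, 45.8% of expressed probe sets (30 or more on the 6 arrays) lay wholly above in clf-28 beside the 42 members, and 43.1% in swn-7 beside the 43. Without swn-7 replicate 1, 33.8% lay below in swn-7 beside the 42, and without swn-7 replicate 2, 37.8% lay above in clf-28 minus swn-7 beside the 29. The medians were -0.31 to -0.12 for clf-28 minus wild type, -0.10 to 0.04 for swn-7 minus wild type, whose sign turned, and -0.29 to -0.23 for clf-28 minus swn-7.

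Over all probe sets, clf-28 minus wild type gave 41 calls with a constant of 16 and 2 in the fit to the compared arrays, against 21. For swn-7 minus wild type there were 8 with no filter on dim probe sets and 1 with a floor passed on at least 6 arrays, against 0. For clf-28 minus swn-7 there were 38 with the constant, 30 with robust eBayes and 29 in the fit to the compared arrays, against 18. With the replicate block the counts were 23, 0 and 11, and 0 members were called, as without it. Among members, 1 was called in clf-28 minus wild type with the constant (248888_at, adjusted p = 0.0343). In clf-28 minus swn-7, 1 was called with the constant, with a floor of 20% and without trend (255510_at, adjusted p = 0.0447 to 0.0469). The members' median in swn-7 minus wild type was 0.069 with arrays scaled to equal medians (0.13 for expressed probe sets). In clf-28 minus swn-7 it was -0.32 with that scaling (-0.08 for expressed probe sets), -0.26 with quantile normalization and -0.18 with 1 probe set per gene. The cause of these shifts was not tested. A fit without the double-mutant arrays, added after the data were seen, gave 14, 0 and 13 calls and 0 members. Of the 21 differences of single members refitted in every setting (the extremes of each contrast and AT3G56060, BZIP61 and AT1G54820), 0 reversed, and in 12 combinations of a difference and a setting the threshold was passed. Detection limits the double-mutant signals, which are upper bounds.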

Other observations

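The members without a listed gene, with the 1 that matches several, number 45 and include many of the brighter ones: 17 of the 31 members with a mean of 100 or more belong to them. They lay at 0.0650 to 9.94 on the double-mutant arrays, against 33.6 to 388 in clf-28, 31.7 to 483 in swn-7 and 30.2 to 502 in wild type. The median bound was at least 9.62-fold lower than wild type for them. Among the brightest, 261480_at had 4.06 and 9.12 in the double mutant, 270 and 264 in clf-28, 377 and 327 in swn-7, and 392 and 354 in wild type. 265342_at had 0.347 and 0.718 in the double mutant, 184 and 158 in clf-28, 276 and 300.1 in swn-7, and 256 and 320 in wild type. For both, the clf-28 arrays were lower than any swn-7 or wild-type array. 259783_at was under 1 on both double-mutant arrays, at 0.337 and 0.258, against 129 and 129 in clf-28, 147 and 114 in swn-7, and 140 and 225 in wild type. 259787_at was also under 1 on both, at 0.0888 and 0.0650 in the double mutant, against 42.5 and 40.0 in clf-28, 77.7 and 44.3 in swn-7, and 39.5 and 113 in wild type. Signals below 10 have no order, so a reading under 1 does not set a member apart. These probe sets are named by their identifiers only, and nothing is stated here about their genes.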
